A study of Sus scrofa with 6 samples.

Results

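Of the 3 C1q chain genes, C1QA was abundant on day 11 (D11) of porcine midbrain-like organoid (pMLO) culture, whereas C1QB and C1QC were close to 0 in every library. C1QA reached 65.3 ± 16.9 CPM (UMI counts scaled to a common library total, SD, n = 2) on D11 and lay mostly in the clusters named floor plate-like, which held 90.16% of its D11 transcripts. By day 28 (D28) it had fallen to 0.910 ± 0.209 CPM and by day 45 (D45) to 0.0639 ± 0.0545 CPM (SD, n = 2 each). The genes were selected by their symbols, C1QA, C1QB and C1QC, as 3 of the 30477 genes in the count tables, with the level of C1QA in D11 floor plate cells already known. Their own values are therefore a description and carry no test.

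The libraries were single-cell 3′ libraries (10x Genomics GEM-X) of pMLOs grown from a single porcine embryonic stem cell line, IVF_1_ pESC_FIW, derived from an embryo fertilised in vitro. There were 2 libraries, A and B, for each of D11, D28 and D45. All organoids received SB431542, Noggin, SHH-C24II and CHIR99021 from day 0, then FGF8, then FGF8 with BDNF and ascorbic acid. The 3 days differ in culture time, and D11 differs from D28 and D45 also in what was added up to that day. The D11 organoids were collected before Matrigel embedding, and the D28 and D45 organoids after it, in medium with BDNF, GDNF, ascorbic acid, db-cAMP and DAPT. The libraries of a day are called biological duplicates, but nothing states that they came from separate cultures, and all libraries share a single line. The p-values between days therefore measure the spread between these libraries only. Those between cells with and without C1QA compare sums of cells from the same D11 libraries. The labels give midbrain dopaminergic neurons as the cell type of every library, including D11, where 42.67% of kept cells were floor plate-like and 8.96% neuron-like. Of 104820 barcodes, 102940 cells were kept, 13870 to 21553 per library, with 106805311 to 180034791 transcripts counted by unique molecular identifier (UMI) per library and a median of 2300.5 to 10757 UMIs per cell. Pairs of libraries shared between 0.389% and 0.637% of the barcodes of the smaller library.

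C1q is the recognition molecule of the classical complement pathway. Its A, B and C chains assemble into a bundle of collagen-like stalks with globular heads, and with the proteases C1r and C1s it starts the cascade that cleaves C4, C2 and C3. In the brain C1q is made mainly by microglia and tags synapses and debris for removal. The floor plate is the ventral midline of the neural tube, which secretes SHH and, in the midbrain, gives rise to dopaminergic neurons.

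The 3 genes lie side by side on chromosome 6 of the pig genome (Sscrofa11.1, RefSeq annotation), all on the plus strand, within 19818 bases. C1QA spans 80586259 to 80589213, C1QC spans 80592591 to 80597464 and C1QB spans 80601680 to 80606076, with 3377 bases between C1QA and C1QC and 4215 between C1QC and C1QB. The 250 bases before each annotated start are printed 5′ to 3′ because these neighbouring promoters belong to genes with very different levels here. They cover chr6:80586009-80586258 for C1QA, chr6:80592341-80592590 for C1QC and chr6:80601430-80601679 for C1QB, each directly upstream of the annotated gene. Capitals mark the reverse complement of GAGGAAG, the core bound by PU.1 and other ETS factors.
C1QA: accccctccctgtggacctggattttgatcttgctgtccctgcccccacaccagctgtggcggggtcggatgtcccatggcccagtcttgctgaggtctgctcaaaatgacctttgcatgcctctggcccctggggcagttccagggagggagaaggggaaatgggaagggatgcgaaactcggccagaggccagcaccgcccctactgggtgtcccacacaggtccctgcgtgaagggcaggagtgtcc
C1QC: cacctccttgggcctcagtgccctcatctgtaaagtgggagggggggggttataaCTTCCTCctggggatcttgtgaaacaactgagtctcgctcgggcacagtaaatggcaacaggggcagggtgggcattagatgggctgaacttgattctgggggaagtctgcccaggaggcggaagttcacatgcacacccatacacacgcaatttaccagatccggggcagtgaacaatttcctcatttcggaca
C1QB: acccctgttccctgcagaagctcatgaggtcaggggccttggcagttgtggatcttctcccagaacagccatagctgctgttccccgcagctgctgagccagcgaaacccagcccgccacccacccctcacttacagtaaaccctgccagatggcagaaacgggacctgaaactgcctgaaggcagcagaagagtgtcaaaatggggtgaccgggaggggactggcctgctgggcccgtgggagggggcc
Their GC content was 62.8% for C1QA, 54.4% for C1QC and 62.0% for C1QB. Motifs were searched on both strands, and no motif searched overlapped another match. The FOXA core TGTTTNC was in none of the 3 windows and in 14.1% of 20664 promoter windows of the same length. GAGGAAG occurred once, on the reverse strand of the C1QC window at position -195 from the start, and in 9.84% of all windows. The GLI core GACCACCC (0.798% of all windows) and the homeodomain core TAATTA (4.09%) were in none of the 3. A match or its absence describes the letters of these windows only.

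C1QA, which encodes the A chain, was counted 22583 times in the 6 libraries, and made up 99.97% of the UMIs of the 3 genes. D11 libraries A and B contained 8443 and 13915 of its UMIs, those of D28 113 and 96, and those of D45 3 and 13. Per library this was 53.4 and 77.3 CPM at D11, 1.06 and 0.762 CPM at D28, then 0.0253 and 0.102 CPM at D45. The libraries of the 3 days did not overlap, and the lower D11 library was 50.4-fold above the higher D28 library. The mean CPM on D11 was 71.8-fold that on D28. The fit over all genes, which rescales the library totals (TMM) and so differs from the ratio of CPM means, gave a log2 difference of -6.42 (SE 0.47) between D28 and D11 and of -10.36 (SE 0.59) between D45 and D11. D45 A holds only 3 UMIs, and the D45 libraries differed. The counting interval over both, 0.0373 to 0.106 CPM, does not cover D45 A, and the log2 difference between D45 and D11 was -9.68 without D45 A and -11.73 without D45 B. In sums over whole libraries, fewer cells of a type and less RNA per cell cannot be told apart. Counting intervals here are exact Poisson or Clopper-Pearson intervals at 95% and cover counting error only.

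C1QB, which encodes the B chain, was counted 1 and 2 times in the D11 libraries, 1 and 0 times at D28, and again 1 and 0 times at D45. C1QC, which encodes the C chain, had 0 and 2 UMIs on D11 and none in the other 4 libraries. Over both D11 libraries this is 0.00887 CPM for C1QB (0.00183 to 0.0259) and 0.00591 CPM for C1QC (0.000716 to 0.0214), at or below the 0.00887 CPM that 3 UMIs amount to. The UMIs count transcript 3′ ends and are not divided by gene length, and the deposited counts show only what the authors' annotation of each 3′ end captured. None of the 3 D11 C1QB UMIs lay in a cell with a C1QA UMI, and 1 of the 2 C1QC UMIs did. All 3 C1QB UMIs and 1 C1QC UMI lay in the cluster led by RSPO2 and LMX1A described further on, and the other C1QC UMI in the cluster with most C1QA. The chains could therefore not be compared cell by cell at this depth.

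**Figure D1:**
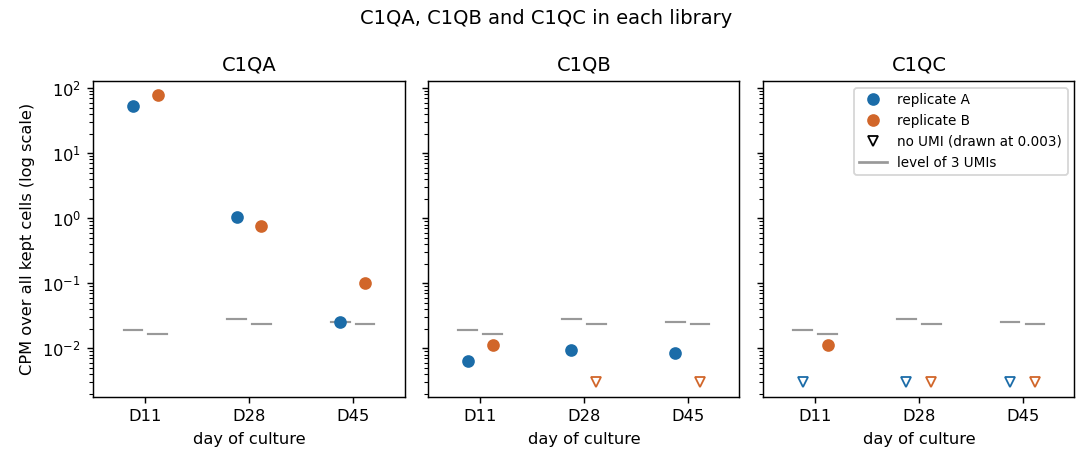
CPM (log axis) of C1QA, C1QB and C1QC against day of culture, with a point for each library. C1QA lies between 53.4 and 77.3 CPM in the D11 libraries and at or below 1.06 CPM in all later ones, and C1QB and C1QC are at or near the counting floor throughout.

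C1QA transcripts were spread over many D11 cells. At least 1 UMI was found in 22.33% of cells of D11 A (21.66% to 23.01%) and 24.03% of cells of D11 B (23.46% to 24.61%), against 0.644% and 0.627% on D28 and 0.0149% and 0.0543% on D45. Of the positive cells, 1498 of D11 A and 2283 of D11 B carried a single UMI, and 77 and 107 carried 10 or more, with a highest count of 18 and 24. The 5% of cells with most C1QA held 52.84% and 49.97% of its UMIs. When each cell was reduced to 5000 UMIs drawn at random, 16.75% and 24.04% of D11 cells had C1QA, against 0.388% and 0.366% on D28. At this equal depth both D11 libraries again lay above both D28 libraries.

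Cells were then grouped by their expression, leaving C1QA, C1QB, C1QC, FOXA2, SHH, CORIN and LMX1A out of the genes used, and clusters were named from floor plate, neuronal and other markers. On D11 the floor plate-like cells were 2 clusters. The larger had floor plate markers such as CORIN, NTN1, SPON1, FOXA1, FOXA2 and SHH above the other clusters, and the smaller had CORIN, FOXA1, SHH and LMX1A among its markers and was led by RSPO2, which encodes a WNT-enhancing secreted protein. Together they held 6306 cells of D11 A and 9165 of D11 B, with C1QA at 116 and 140 CPM (128 ± 16.97, SD, n = 2). A pair of clusters led by other genes, such as DBX1, WNT8B and EMX2 in the larger and PAX5 and FGF8 in the smaller, had 2.28 and 4.63 CPM. They also held TOP2A, CENPF and other markers of dividing cells above the other clusters, but are not named from these here. Neuron-like cells had 5.31 and 6.44 CPM. At a median depth of 10598.5 and 10215 UMIs, 43.85% and 46.08% of floor plate-like cells had a C1QA UMI. In the pair of clusters led by other genes, at 11731 and 12377 UMIs, 2.45% and 5.01% of cells did. That level was taken as background for free RNA, an assumption that was not tested. Reduced to 2000 UMIs per cell, the shares were 18.3% and 21.8% in floor plate-like cells and 0.473% and 0.678% in the pair of clusters.

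The 2 floor plate-like clusters differed in C1QA. The larger had 145.8 and 176.2 CPM in libraries A and B and held 84.68% of all D11 C1QA UMIs in 33.57% of the cells. C1QA was first among its leading genes, followed by PGF, which encodes placental growth factor, DAPK2, a protein kinase gene, and COL13A1, a transmembrane collagen gene. The cluster led by RSPO2 and LMX1A had 34.7 and 28.0 CPM of C1QA. That cluster carried more LMX1A, which encodes a transcription factor of dopaminergic progenitors, at 533 and 508 CPM against 67.6 and 68.9 CPM in the larger cluster. FOXA2, the forkhead factor of the floor plate, ran the other way, at 54.0 and 56.7 CPM against 178.6 and 165 CPM. SHH, the secreted signal, was at 59.1 and 50.2 CPM against 71.5 and 59.2 CPM, and CORIN, a membrane serine protease used as a floor plate marker, at 318 and 212 CPM against 407 and 340 CPM. Of the 2 clusters, that with more LMX1A had less C1QA, and that with more FOXA2 had more.

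The other D11 clusters had less C1QA than the larger floor plate-like cluster. A cluster with floor plate markers but led by mitotic genes such as TOP2A, left unnamed for that reason, had 28.1 and 35.0 CPM of C1QA. Its FOXA2 was at 177.9 to 185.9 CPM. The cluster led by genes such as PAX5 and FGF8 had FOXA2 at 101.7 to 105.0 CPM and C1QA at 3.82 to 5.62 CPM. C1QA thus did not follow FOXA2 in every D11 cluster. A cluster with 46.3% doublet calls had 58.0 and 45.4 CPM. Cells with few UMIs, led by KRT8, had 19.8 and 47.5 CPM of C1QA at a median depth of 1965 and 624 UMIs. The cluster led by genes such as WNT8B, DBX1 and EMX2 had 1.82 and 4.26 CPM, and 0.374% and 0.711% of them had C1QA at 2000 UMIs. The unnamed D11 cells together had 30.2 and 39.8 CPM of C1QA, with 25.46% of the cells and 7.39% of its UMIs.

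Co-detection with FOXA2, SHH, CORIN and LMX1A was measured over all D11 cells of at least 5000 UMIs, each reduced to 5000 (12088 cells of D11 A and 13326 of D11 B). Among cells with a FOXA2 UMI, 29.86% and 34.08% also had C1QA, against 11.13% and 18.57% of cells without. For SHH the shares were 26.64% and 30.49% against 14.83% and 22.74%. For CORIN they were 30.77% and 35.59% against 9.95% and 16.64%. For LMX1A they were 30.69% and 32.59% against 13.58% and 21.48%. In both libraries and for all 4 genes C1QA was therefore found more often in cells with the gene than in cells without it. The ratio of the shares, averaged over the 2 libraries, was 2.62 ± 0.674 for CORIN, 2.26 ± 0.6003 for FOXA2, 1.89 ± 0.525 for LMX1A and 1.57 ± 0.322 for SHH (SD, n = 2), with each gene lower in B. The ranges of neighbours in this order overlapped, and the order changed with the setting. FOXA2 lay above CORIN in both libraries when 2 UMIs were required (2.44 against 2.11 in A and 1.71 against 1.58 in B), and in B also at 2000 UMIs (1.72 against 1.56) and without thinning (3.78 against 3.51). SHH lay above LMX1A in B when 2 UMIs were required (1.41 against 1.25) and without thinning (2.23 against 2.22). C1QB and C1QC had too few UMIs for such shares.

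C1QA detection rose with the number of these 4 genes found in a cell. In D11 A it was 3.50% with none, 21.2% with 1, 29.6% with 2, 36.8% with 3 and 41.8% of the 91 cells with all 4 (31.5% to 52.6%). In D11 B it was 8.50%, 27.0%, 34.3%, 37.9% and 50.8% of the 128 cells with all 4 (41.8% to 59.7%). The step from 3 to 4 genes lay within the interval of the last share in D11 A. At 2000 UMIs per cell the share was 18.4% with 2 and 18.0% with 3 genes in D11 A and 18.9% and 18.7% in D11 B, and with all 4 genes 2 of only 7 cells and 1 of only 8 had C1QA. Cells with SHH alone of the 4 had C1QA in 14.8% and 20.9% of cases, those with LMX1A alone in 18.8% and 24.9%, those with FOXA2 alone in 20.8% and 25.6%, and those with CORIN alone in 25.5% and 31.1%. The combination FOXA2, CORIN and LMX1A without SHH gave 46.5% and 48.9%.

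**Figure D2:**
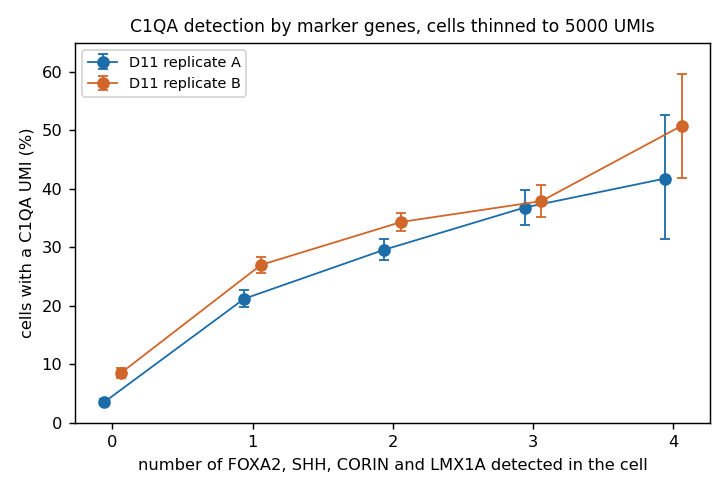
Percentage of D11 cells with a C1QA UMI against the number of FOXA2, SHH, CORIN and LMX1A detected in the cell, each cell reduced to 5000 UMIs, with a line for each library and 95% intervals. The share climbs from 3.50% and 8.50% with none to 41.8% and 50.8% with all 4.

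Over these D11 cells, which include many outside the floor plate-like clusters, other floor plate genes behaved alike. Among cells with and without NTN1, the secreted guidance cue netrin 1, 24.83% and 5.44% had C1QA in D11 A, and 31.02% and 12.22% in D11 B. For SPON1, an extracellular matrix gene of the floor plate, the shares were 19.33% and 4.29%, and 28.15% and 5.67%. For FOXA1, a relative of FOXA2, they were 28.45% and 6.82%, and 33.88% and 12.67%, and for FERD3L, a basic helix-loop-helix factor gene, 35.11% and 15.70%, and 39.04% and 23.07%. RSPO2 went the other way, with C1QA in 12.36% of cells with it and 17.32% without it in D11 A, and in 11.53% and 26.03% in D11 B. C1QA was likewise less frequent in cells with TOP2A, a gene of dividing cells (6.74% against 20.57%, and 11.87% against 28.47%), with STMN2, a neuron gene (8.83% against 18.51%, and 15.23% against 26.66%), with HES5, a Notch target of progenitors (5.16% against 18.53%, and 10.37% against 25.57%), and with EMX2, a forebrain patterning gene (1.35% against 18.43%, and 3.94% against 25.17%). Of the interferon-response genes, ISG15 showed little difference (14.69% against 16.79%, and 22.57% against 24.08%) and MX1 a larger one (37.27% against 16.18%, and 40.22% against 23.48%).

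**Figure D3:**
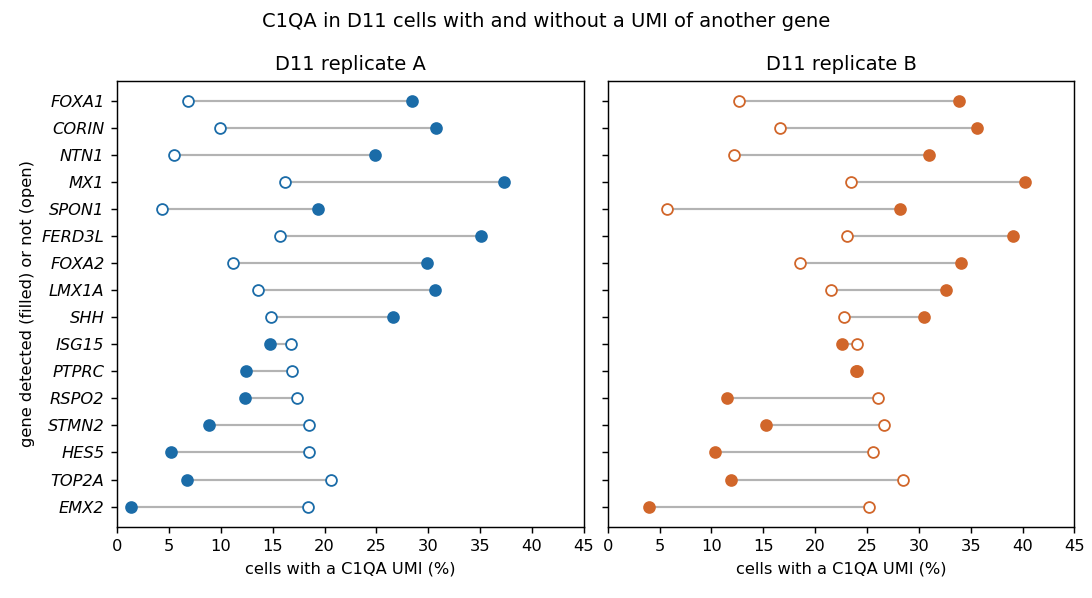
Percentage of D11 cells with a C1QA UMI among cells in which another gene was detected (filled) or not detected (open), in D11 libraries A and B, each cell reduced to 5000 UMIs. The filled points lie to the right for the floor plate genes and to the left for RSPO2, TOP2A, STMN2, HES5 and EMX2.

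The genes most like C1QA across the 23 clusters of all days, by Pearson's r of log2(CPM + 1), were DAPK2 (r = 0.955), A2M (0.917), CIITA (0.915), SMIM1 (0.908) and COL13A1 (0.907). A2M encodes a protease inhibitor, CIITA the regulator of class II antigen-presentation genes, and SMIM1 a small membrane protein. The coefficient was 0.783 for FOXA2, 0.805 for SHH, 0.735 for CORIN, 0.273 for LMX1A and 0.0996 for RSPO2. These are coefficients over clusters that share libraries and depth, given without a test.

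Macrophages and microglia are the usual source of C1q, and their marker genes were measured beside it. Of 18 such genes, 13 were under 1 CPM on D11 and 1 was at 0. TYROBP, which encodes the adaptor of microglial receptors, stood at 0.0126 and 0.0167 CPM, TREM2, such a receptor, at 0.00632 and 0.00555 CPM, CX3CR1 at 0.0442 and 0.0278 CPM, and LYZ at 0 in all 6 libraries. The summed level of the list was 3227 to 3601 CPM on D11, nearly all of it CD74, the class II invariant chain, which was found in 100% of C1QA-positive and 99.97% of C1QA-negative cells of D11 A. Without CD74 the sum was 28.9 to 29.8 CPM on D11, 61.3 to 66.7 CPM on D28 and 68.8 to 75.0 CPM on D45. In D11 cells with C1QA, reduced to 5000 UMIs, PTPRC, the pan-leukocyte phosphatase, was at 4.15 and 5.24 CPM, against 5.64 and 5.45 CPM in cells without. SPI1, the gene of PU.1, was at 10.3 and 11.3 CPM against 13.2 and 12.3 CPM, and CSF1R, the receptor that macrophages depend on, at 0.198 and 0.187 CPM against 0.398 and 0.514 CPM. P2RY12, a receptor of microglia, was higher in cells with C1QA in both libraries (3.46 against 2.35 CPM, and 3.43 against 3.08 CPM), as was IRF8, a transcription factor of myeloid cells (6.03 against 5.31 CPM, and 5.37 against 5.16 CPM), and CD74 (3616 against 3219 CPM, and 4040 against 3554 CPM). TYROBP, TREM2 and LYZ had no UMI in either set of these thinned cells. The part of such cells in the C1QA level was not tested.

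The fall of C1QA between D11 and D28 was also seen within floor plate-like cells, where the number of such cells does not enter. On D28 nearly all of these cells (2600 of 2613 and 4226 of 4259) were in a single cluster, led by the interferon-response genes IFI6 and ISG15, with CORIN, NTN1, SPON1 and FOXA1 among its markers, so the cells compared come from different clusters on the 2 days. C1QA was at 116 and 140 CPM in the D11 libraries and at 2.93 and 1.46 CPM in the D28 libraries (2.19 ± 1.04, SD, n = 2). The days did not overlap, the mean CPM on D11 was 58.4-fold that on D28, and the fit with rescaled totals gave a log2 difference of -6.03 (SE 0.45). Floor plate-like cells held 182 of the 209 C1QA UMIs of D28. On D45 the 176 and 356 floor plate-like cells had 1 and 0 C1QA UMIs, too few for a level. With each day clustered separately, 826 and 1626 D45 cells were floor plate-like, with 1 and 3 C1QA UMIs. FOXA2 in the same cells went from 145 and 139 CPM to 41.1 and 57.8 CPM, SHH from 68.2 and 57.0 CPM to 4.76 and 23.8 CPM, LMX1A from 192 and 176 CPM to 46.5 and 26.7 CPM, and CORIN from 383 and 308 CPM to 185 and 243 CPM. All 4 were lower on D28 in both libraries, by less than C1QA. The LMX1A difference depended on which D28 cells were counted. On the log2 scale it was -2.45 here, -0.78 at clustering resolution 0.4, -0.035 in cells chosen by at least 2 of these 4 genes, and -0.25 in whole libraries. A D28 cluster of 984 and 380 cells with LMX1A at 306 and 559 CPM and CORIN at 213 and 199.8 CPM had too few floor plate markers to be named, and C1QA there was at 0.160 and 0.195 CPM.

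Other complement genes were followed with a list of 54, of which 41 are named in the count tables. C1R and C1S, the proteases that bind C1q, and CD59, the membrane inhibitor, are among those not named. In floor plate-like cells 24.7% of 18786 genes tested passed edgeR's quasi-likelihood test at a Benjamini-Hochberg adjusted p of 0.05 between D28 and D11 (12.5% higher and 12.3% lower), with a median log2 difference of -0.01. Of the complement list, 33 were tested and 12 passed, 9 higher and 3 lower on D28, with a median of 0.69. With a D11 library left out fewer genes passed, and with a D28 library left out more, in the list and over all genes alike. This swing is thus not particular to complement genes.

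The rises included genes of inhibitors and of the terminal pathway. SRPX2, which encodes a secreted protein that binds C1q and inhibits complement, rose in floor plate-like cells from 0.259 and 0.134 CPM to 13.1 and 5.12 CPM (log2 difference 5.45, SE 0.63, adjusted p = 0.000702). CLU, whose product clusterin inhibits the terminal complex, rose from 531 and 630 CPM to 9169 and 5266 CPM (3.51, SE 0.45, adjusted p = 0.00103). CSMD3, a membrane protein gene with the CUB and sushi domains of complement regulators, rose from 1.86 and 1.89 CPM to 17.9 and 30.8 CPM (3.50, SE 0.37, adjusted p = 0.000442). C7, a component of the membrane attack complex, rose from 0.0760 and 0.0890 CPM to 1.94 and 0.467 CPM (3.68, SE 0.86, adjusted p = 0.0192), a call lost without either D11 library (adjusted p = 0.0942 without A and 0.0848 without B). All 4 were higher in each D28 library than in each D11 library, which their choice as the largest rises past the threshold made likely.

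The genes that fell were CD93, SUSD4 and C5. CD93, a surface receptor once described as a C1q receptor, fell from 1.80 and 1.73 CPM to 0.0580 and 0.0540 CPM (log2 difference -5.11, SE 0.53, adjusted p = 0.000687), and SUSD4, a sushi-domain complement inhibitor gene, from 14.5 and 10.4 CPM to 3.54 and 5.19 CPM (-1.70, SE 0.25, adjusted p = 0.00216). C5 fell from 11.0 and 9.49 CPM to 5.39 and 7.90 CPM (-0.81, SE 0.23, adjusted p = 0.0366), a call lost without D11 A (0.369), D11 B (0.243) or D45 A (0.052), with the library letter as a replicate block (0.0803), with each day clustered separately (0.0589) and in cells chosen by at least 2 of the 4 marker genes (0.0635). The next steps of the classical pathway did not pass the test. C2 was at 0.167 and 0.369 CPM on D11 and 0.812 and 0.575 CPM on D28 (adjusted p = 0.157), C4A had a log2 difference of 0.74 (adjusted p = 0.184), and C3 was at 0.502 and 0.257 CPM against 0.232 and 0.305 CPM (adjusted p = 0.430). Without D28 B the log2 difference was 1.52 for C2 and 0.95 for C4A, against 1.15 and 0.74 with all libraries. SERPING1, the gene of the C1 inhibitor, was at 95.5 and 105 CPM on D11 and 114 and 49.7 CPM on D28 (adjusted p = 0.551), with D28 A and B on either side of the D11 values. Without D28 A its log2 difference was -1.35, against -0.40 with all libraries.

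**Figure D4:**
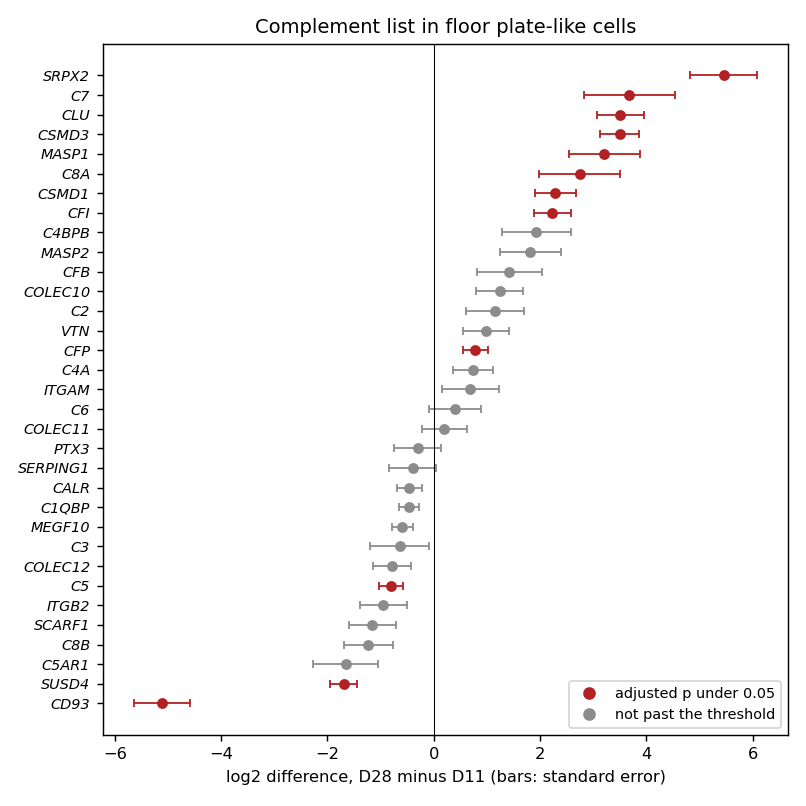
log2 difference between D28 and D11 in floor plate-like cells for the tested genes of the complement list, with bars for the standard error. C1QA is not drawn. CD93 at -5.11, with very few UMIs on D28, lies farthest to the left, and SRPX2 at 5.45 farthest to the right.

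The same list was then followed in whole libraries, which contain the floor plate-like cells. These were 42.67% of cells on D11 and 24.4% on D28. The D28 libraries also differed from each other in make-up. Dopaminergic neuron-like cells numbered 4187 in D28 A and 899 in D28 B, and the larger fibroblast-like cluster had 1484 and 134 cells. The part of cell make-up in the differences below was not tested. Between D28 and D11, 23.1% of 22191 genes passed the edgeR test (12.5% higher and 10.6% lower), and 13 of 37 complement genes did, 9 higher and 4 lower, with a median log2 difference of 0.65 against 0.03 over all genes. SRPX2 rose from 0.145 and 0.106 CPM to 9.74 and 3.40 CPM (5.51, adjusted p = 0.00464), and CLU from 293 and 408 CPM to 4281 and 2855 CPM (3.11, adjusted p = 0.00262). CFD, the gene of complement factor D, had a log2 difference of 3.01 (adjusted p = 0.0107, lost without D11 A at 0.0815 and without D11 B at 0.0851), and CSMD1 of 2.28 (adjusted p = 0.00148). CD93 fell from 1.33 and 1.39 CPM to 0.0655 and 0.0874 CPM (-4.40, adjusted p = 0.00309). MEGF10, a phagocytic receptor gene, had a log2 difference of -1.23 (adjusted p = 0.0157), ITGB2, an integrin chain of complement receptor 3, of -1.13 (adjusted p = 0.0456), and C8B of -1.01 (adjusted p = 0.0312). Fewer genes passed without a D11 library and more without D28 B, in the list and over all genes alike. Each of the MEGF10, ITGB2 and C8B calls was lost without D11 A. The ITGB2 and C8B calls were also lost without D11 B, D45 A or D45 B and with the replicate block (adjusted p = 0.0725 and 0.0788). That of ITGB2 was lost without D28 A as well.

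By D45 further complement genes had moved in whole libraries, whose cell make-up had also changed. Floor plate-like cells were 42.67% of cells on D11 and 1.38% on D45 (176 and 356 cells). The D45 number depended on the clustering, at 826 and 1626 cells with each day clustered separately. On D45 18.61% of cells were astrocyte-like, 8.715% oligodendrocyte lineage-like and 6.605% fibroblast-like. The part of this change in the differences was not tested. Between D45 and D11, 34.6% of genes passed (17.3% higher and 17.4% lower), and 16 of 37 complement genes did, 10 higher and 6 lower (median 0.53, over all genes -0.01). Fewer complement genes passed without a D11 or a D45 library, and the same held over all genes. C4A, which feeds the classical C3 convertase, rose from 0.683 and 0.661 CPM on D11 to 7.54 and 8.51 CPM on D45 (log2 difference 3.17, adjusted p = 0.000469, edgeR), when C1QA was at 0.0253 and 0.102 CPM. CFD had a log2 difference of 4.83 (adjusted p = 0.00107) and CSMD1 of 3.90 (adjusted p = 0.000261). Between D45 and D28, 9.4% of genes passed in edgeR (4.47% higher and 4.93% lower) and 3 of 37 complement genes did, all higher. None of these calls held without D45 A or without D45 B. DESeq2 called 4352 genes, 11 of them complement genes. These were not all higher, as CLU was lower (log2 difference -1.11, DESeq2 adjusted p = 0.0107).

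C1QA also belongs to the wider family of proteins with a C1q domain, of which 26 of 28 listed genes are named in the tables. In floor plate-like cells 21 were tested and 10 passed between D28 and D11, 6 higher and 4 lower, against 24.7% of all genes, with a median log2 difference of 0.61. Fewer of these genes passed without a D11 library and more without a D28 library, as was the case over all genes. MMRN1, which encodes multimerin 1, fell from 57.9 and 50.0 CPM to 0.493 and 0.575 CPM (log2 difference -6.83, SE 0.27, adjusted p = 4.3e-05), and COL8A1, a type VIII collagen gene, from 334 and 259 CPM to 61.1 and 61.0 CPM (-2.44, adjusted p = 0.000232). C1QTNF3 fell from 0.852 and 0.771 CPM to 0.116 and 0.162 CPM (adjusted p = 0.00525), and C1QL2 from 0.380 and 0.458 CPM to 0.0580 and 0.0900 CPM (adjusted p = 0.0142), and neither call was made without D11 A or without D11 B. C1QL2 in D28 A lay below the level of 3 UMIs, and DESeq2 did not call it (adjusted p = 0.104). Its log2 difference was -0.16 in cells chosen by at least 2 of the 4 marker genes (adjusted p = 0.919). That of C1QTNF3 was -1.44 at clustering resolution 0.4 (adjusted p = 0.0682). C1QTNF7 rose from 0.715 and 0.670 CPM to 10.5 and 5.69 CPM (3.42, adjusted p = 0.00333), and C1QL4 from 1.22 and 1.26 CPM to 17.5 and 6.68 CPM (3.18, adjusted p = 0.00341). CBLN1, a synaptic organiser gene, rose from 0.122 and 0.156 CPM to 1.51 and 1.02 CPM (adjusted p = 0.00560), and COL8A2 from 1.16 and 1.30 CPM to 14.7 and 4.72 CPM (adjusted p = 0.0166), both again short of the threshold without either D11 library. At clustering resolution 0.4 the log2 difference of CBLN1 was 1.04 (adjusted p = 0.193) against 2.99 here. Of 12 macrophage genes tested in these cells 3 passed, a share near the 24.7% of all genes. CD74 had a log2 difference of -1.27 (adjusted p = 0.0227), lost without either D11 library and with the replicate block (0.0503), PTPRC of 1.70 (adjusted p = 0.0109), lost without D11 A, and CD14 of 1.53 (adjusted p = 0.0493). The CD14 call was lost under 12 alternatives, among them each library left out except D28 B, the replicate block and every other way of choosing the cells, with adjusted p from 0.0546 to 0.440.

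D11 floor plate-like cells with a C1QA UMI were finally compared with those without, each cell reduced to 5000 UMIs (1830 against 3619 cells in D11 A and 2891 against 4506 in D11 B), with the library as a block. The cells with C1QA came more often from the larger floor plate-like cluster (90.2% against 70.1%, and 93.4% against 69.2%), so the comparison also carries the difference between the 2 clusters. Of 14879 genes, 22.2% passed in edgeR (10.9% higher and 11.3% lower), whose 4 sums leave 1 residual degree of freedom, and 826 genes (5.55%) passed in DESeq2. The common dispersion that edgeR fitted was 0.000534 here against 0.0474 in the comparison of days in floor plate-like cells. The fit thus allowed the sums little spread beyond counting error, and its standard errors and p-values are small. The sums are cells of the same libraries, so these p-values do not measure the spread between cultures. Single genes such as HCRT, given below, differed more between the D11 libraries. The floor plate genes of the co-detection rule had log2 differences of 0.33 for FOXA2, -0.10 for SHH, -0.08 for CORIN and -0.48 for LMX1A, given without a test. LMX1A was thus lower, and SHH and CORIN slightly lower, in the C1QA-positive cells of this comparison. Over all D11 cells C1QA was found more often in cells with each of these genes. The log2 difference was 0.08 for NTN1, 0.14 for FOXA1, 0.30 for FERD3L and 0.32 for SPON1. Within the larger cluster alone it was -0.14 for NTN1, 0.04 for SPON1 and 0.26 for FERD3L.

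Of the complement list, 22 were tested and 4 passed, 2 higher and 2 lower, a share no higher than the 22.2% of all genes, so the count is not a result about complement genes. The 22 had a median log2 difference of -0.10 against 0.01 over all genes. CLU was higher in C1QA-positive cells, at 703 against 486 CPM in D11 A and 833 against 560 CPM in D11 B (log2 difference 0.58, SE 0.04). SERPING1 was higher at 110 against 91.7 CPM and 116 against 99.6 CPM (0.27, SE 0.05), though not without the library as a block (adjusted p = 0.216). PTX3, which encodes a pentraxin that binds C1q, was lower at 57.4 against 110 CPM and 60.6 against 119 CPM (-0.92, SE 0.05). CD93 was lower at 0.765 against 1.33 CPM and 1.11 against 2.22 CPM (-0.90, SE 0.35, edgeR adjusted p = 0.0427), a call lost without the block (adjusted p = 0.237), at 2000 UMIs (-0.52, 0.687), without thinning (-0.33, 0.223) and over all D11 cells (-0.37, 0.376). Within the larger cluster alone the log2 differences were 0.36 for CLU, 0.30 for SERPING1, -0.79 for PTX3 and -1.17 for CD93, and within the cluster led by RSPO2 and LMX1A that of SERPING1 was 0.044 (adjusted p = 0.935). None of the 5 macrophage genes tested passed in edgeR, and none had an unadjusted p under 0.05.

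The genes with the largest rises in C1QA-positive cells, among those with at least 100 UMIs and higher in both libraries, were taken as the 10 to name. HCRT, the hypocretin precursor gene, had the largest log2 difference (2.94), but it rested on D11 B (30.7 against 1.91 CPM) rather than D11 A (4.26 against 3.10 CPM), and DESeq2 did not call it (adjusted p = 0.593). KCNH7, a potassium channel gene, was at 26.6 against 6.58 CPM and 22.3 against 6.61 CPM (1.90, SE 0.11), and CACNA1C, an L-type calcium channel gene, at 8.31 against 2.60 CPM and 7.06 against 2.18 CPM (1.71, SE 0.20). CNTN5, an adhesion gene of the contactin family, was at 408 against 128 CPM and 289 against 105 CPM (1.59, SE 0.04). PRR32 (1.76), RET, the GDNF receptor gene (1.49), RGS6, a regulator of G protein signalling (1.48), CNTNAP5 (1.47, not called by DESeq2, adjusted p = 0.142), DNAH17, an axonemal dynein gene (1.40), and ACBD7 (1.38) were the others. At 2000 UMIs per cell the calls of PRR32 (0.75, adjusted p = 0.190) and RET (1.11, adjusted p = 0.0678) were lost. Over all D11 cells the log2 differences of RET, KCNH7 and CNTNAP5 turned to -0.34, -0.11 and -2.09. Within the larger cluster alone CNTN5 still differed by 1.30 and CACNA1C by 1.40 on the log2 scale. TOP2A was lower in C1QA-positive cells (19.0 against 79.7 CPM, and 22.9 against 85.4 CPM), as were RSPO2 (67.7 against 177 CPM, and 37.9 against 167 CPM, with a log2 difference of 0.13 within the cluster it leads) and HES5 (12.02 against 26.3 CPM, and 15.01 against 26.5 CPM).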

How the data were processed

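The 6 libraries of pMLO cells were deposited by the authors as raw UMI counts per gene and cell, made with Cell Ranger on Sscrofa11.1, and the submitters' notes also name Seurat 4.3.0. Cells with 200 to 7000 genes and at most 10% mitochondrial counts were kept, the limits of the study's methods, leaving 102940 of 104820 barcodes, where GEO's design text gives 103310 cells. Depth was 106805311 to 180034791 UMIs per library. Cells were clustered with scanpy 1.11.5 on 1998 variable genes without the C1q genes, FOXA2, SHH, CORIN and LMX1A (30 principal components, 20 neighbours, Leiden resolution 0.8), and clusters were named from marker lists. Cluster-naming limits were set after seeing the data. Doublets were called with Scrublet and kept in the main values, and a cluster with over 30% doublet calls stayed unnamed. Counts were summed per library, or per library and class, and tested with edgeR 4.0.16 (quasi-likelihood, R 4.3.3, Benjamini-Hochberg over all genes tested, threshold 0.05), with all 6 libraries in the day fits and the library as a block in the comparison of C1QA-positive with C1QA-negative cells. DESeq2 1.42.0 was an alternative. The tests were checked on simulated counts with known changes, drawn with the common dispersion that each fit had estimated. That check cannot show whether the estimated dispersion was right. For shares of cells, each cell was thinned to 5000 or 2000 UMIs, leaving out shallower cells (2619 of D11 A and 8227 of D11 B at 5000 UMIs). Members, gene lists and tests were chosen with earlier results of these data known. Named genes are the members, the co-detection genes, up to 4 rises and 4 falls past the threshold per list and comparison, complement genes with roles ordered above, the 5 genes most like C1QA and the 10 largest rises in C1QA-positive cells with at least 100 UMIs. Promoter sequences came from RefSeq.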

Additional observations from a re-analysis of the deposited data

How the results depend on the processing

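The fall of C1QA between D11 and D28 kept its direction under every alternative tried, at log2 differences of -6.80 to -6.04 in whole libraries with a library left out, and of -6.79 (without D28 A) to -5.46 (without D28 B) in floor plate-like cells. C1QA in D11 floor plate-like cells was 100.2 CPM at clustering resolution 0.4 and 147.4 CPM with each day clustered separately. Without thinning the co-detection ratios were 4.00 for FOXA2, 2.35 for SHH and 3.97 for CORIN, and with at least 2 UMIs the CORIN ratio was 1.84. Genes passing between D28 and D11 in whole libraries numbered 1111 to 10544 with a library left out. For D45 against D11 the range was 2803 to 12285, and for D45 against D28 it was 0 to 10002, with 0 in edgeR without D45 A (3735 at an unadjusted p under 0.05), 64 without D45 B, and 4352 in DESeq2. In floor plate-like cells it was 1514 to 9876. Complement genes passing ranged over 5 to 25, 8 to 23, 0 to 13 and 7 to 23 in the same order, with 11 in DESeq2 for D45 against D28. Where 1 library of a day was left, it was assumed to vary like the others. The labels do not say whether the letters A and B pair the libraries of different days. The A minus B deviations of the days correlated at -0.415, 0.093 and -0.238 over 19134 genes, which does not settle this. The letters were not used as pairs in the main fits. With the letter as a replicate block, 3313 genes passed between D28 and D11 and 627 between D45 and D28. Between C1QA-positive and C1QA-negative cells 826 genes passed in DESeq2, 1053 without the replicate block, 1387 at 2000 UMIs, 5268 without thinning and 7227 over all D11 cells, and, chosen after seeing the data, 2170 within the larger floor plate-like cluster and 380 within the cluster led by RSPO2 and LMX1A. The complement genes passing were 2 without the replicate block, 8 without thinning, 10 over all D11 cells and 2 within the latter cluster. Leaving out a library there leaves no residual degrees of freedom and was not run. The sign of 10 single-gene differences in this comparison turned, counting those past the threshold in the main or the alternative setting. Over all D11 cells they were 0.54 for COL8A1, -3.11 for STMN2, -2.09 for CNTNAP5, -0.34 for RET and -0.11 for KCNH7. Within the larger cluster they were -0.14 for NTN1 and -0.017 for ISG15, within the cluster led by RSPO2 and LMX1A 0.0207 for COL8A1 and 0.13 for RSPO2, and at 2000 UMIs -0.48 for ISG15. The cause of these changes was not tested. Of the other single-gene values, 1436 were counted as unchanged, 187 fell short of the threshold, 24 passed it and 1 moved. A difference short of the threshold in both settings was counted as unchanged even if its sign turned. The UMI counts of C1QB and C1QC, which have no threshold, are among these values. At this depth C1QB and C1QC lay at or near the counting floor.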

Other observations

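SLA-DQB1 and HLA-DRA, which encode class II antigen-presentation chains and were picked after their values were seen, had Pearson's r of log2(CPM + 1) with C1QA of 0.888 and 0.879 across the 23 clusters. Both were highest in the cluster with floor plate markers and mitotic leading genes, where SLA-DQB1 reached 190.8 CPM, and not in the cluster with most C1QA. GSC, a homeobox gene of early midline tissue, had r = 0.901 with a highest level of 6.00 CPM in the cluster led by RSPO2 and LMX1A. These values are given without a test.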
